A study of Mus musculus with 2 samples.

Results

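Cathepsins are the proteases of the endosome and lysosome, and 10 of the 31053 genes in the matrices were followed here by their symbols. They are the aspartic proteases *Ctsd* and *Ctse* and the papain-like cysteine proteases *Ctsb*, *Ctsc*, *Ctsh*, *Ctsk*, *Ctsl*, *Ctss*, *Ctsw* and *Ctsz*. All 10 were listed once in both matrices. Lungs came from *Pclaf* WT and *Pclaf* KO mice of 8 to 10 weeks, 1 week after bleomycin was instilled at 1.35 U/kg by the design text, and each genotype is 1 library. Both libraries share the digestion in collagenase and elastase and the sort for Cd31-/Cd45-/Epcam+ cells that the labels describe. No source used here says how many mice were pooled in a library, and the KO is described by the study as a germline deletion. Genotype could not be tested on 1 library each: intervals below are exact 95% intervals that cover counting error only, and PCR and cell capture add error that they do not hold.

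Cathepsins are made as inactive precursors, sorted to lysosomes mostly through mannose 6-phosphate receptors, and cut to their active form in the acid lumen. Cystatins and stefins inhibit the cysteine members outside and inside the cell. In the lung they are known for the breakdown of engulfed material by macrophages, the trimming of surfactant protein precursors in alveolar type 2 (AT2) cells, the cutting of the invariant chain of MHC class II in antigen-presenting cells and, once secreted, the degradation of elastin and collagen.

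The WT library held 98171818 unique molecular identifiers (UMIs, 1 per captured transcript end) on 30669 barcodes and the KO library 111267567 on 17172, against 16000 cells loaded per group by the labels. After filters on genes and mitochondrial UMIs, 30187 WT and 15637 KO cells remained, with medians of 2127 and 5957 UMIs. *Pclaf* itself had 3763 UMIs in WT and 529 in KO cells (39.3 and 5.19 counts per 1e+06 UMIs, CPM). The cells do not match the sort label: *Ptprc* (Cd45) was seen in 39.6% of WT and 3.30% of KO cells, *Pecam1* (Cd31) in 41.5% and 4.94%, and *Epcam* in 5.83% and 46.8%. In all, 163 barcodes occurred in both libraries. Cells were clustered without the cathepsins and named "X-like" from marker genes. The suffix is left out from here on. Named classes took in 26230 WT and 14989 KO cells, 29 WT and 16 KO classes had at least 50 cells, and 15 classes had that many in both. Clusters left unnamed, 3957 WT and 648 KO cells, are not ranked below, although *Ctsd* reached 2637 CPM and *Ctsk* 569 in unnamed WT immune cells. The level of a gene in a class is its summed UMIs per 1e+06 UMIs of that class. Reads were counted at the transcript end, so these levels are not divided by gene length.

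The clearest neighbours in the family are *Ctsk* and *Ctss*. *Ctsk*, the collagen-degrading cathepsin of osteoclasts, lies on chromosome 3 of GRCm38 from 95499256 to 95509362, and *Ctss*, the main invariant chain protease of antigen-presenting cells, from 95526786 to 95556403. Both are on the plus strand, 17.4 kb apart, with 0 annotated genes between them, and they differ in the classes that hold them. Their promoters are shown with that of *Ctsd*, the most abundant member in the WT library, which lies on the minus strand of chromosome 7 from 142375911 to 142388038. The sequences are RefSeq promoters of GRCm38.p6, 250 bases before the start and 50 after it, at chr3:95498960-95499259 (plus strand), chr3:95526536-95526835 (plus strand) and chr7:142387778-142388077 (minus strand), and capitals mark the motif matches. The RefSeq starts used for them are not always the GENCODE gene ends printed here: they coincide for *Ctss*, while that of *Ctsk* lies before the GENCODE start and those of *Ctsd* and *Ctsl* lie inside the GENCODE gene.
Ctsk: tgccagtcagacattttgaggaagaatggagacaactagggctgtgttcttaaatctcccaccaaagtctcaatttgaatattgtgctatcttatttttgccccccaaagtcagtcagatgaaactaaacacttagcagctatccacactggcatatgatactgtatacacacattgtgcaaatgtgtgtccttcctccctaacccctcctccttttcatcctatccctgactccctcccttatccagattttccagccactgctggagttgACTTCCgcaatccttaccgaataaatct
Ctss: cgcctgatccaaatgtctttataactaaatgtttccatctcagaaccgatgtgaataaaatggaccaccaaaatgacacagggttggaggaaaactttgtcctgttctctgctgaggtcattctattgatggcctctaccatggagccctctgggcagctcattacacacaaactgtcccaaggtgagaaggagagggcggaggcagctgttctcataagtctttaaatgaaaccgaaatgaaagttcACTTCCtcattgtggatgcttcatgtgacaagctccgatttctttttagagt
Ctsd: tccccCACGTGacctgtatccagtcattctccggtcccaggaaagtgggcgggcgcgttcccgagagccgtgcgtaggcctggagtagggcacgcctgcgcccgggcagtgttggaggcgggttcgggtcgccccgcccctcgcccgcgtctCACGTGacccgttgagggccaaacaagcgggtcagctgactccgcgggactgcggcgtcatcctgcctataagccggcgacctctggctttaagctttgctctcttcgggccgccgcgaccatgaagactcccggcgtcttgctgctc
Searched on both strands were CACGTG (the E-box within the motif of lysosomal gene promoters), GGAAGT (an ETS core, read as ACTTCC on the other strand) and TGACTCA (the AP-1 site), none of which overlap. *Ctsd* held CACGTG at 245 and 98 bases before its RefSeq start, and the *Ctsl* promoter held it once, 236 bases before the RefSeq start. The nearer *Ctsd* match and the *Ctsl* match lie inside the GENCODE spans of these genes. CACGTG occurs in 7.15% of all 32851 promoters of this length. GGAAGT was matched once in *Ctss* (from 2 bases before the start), *Ctsk* (23 bases after the RefSeq start, which is before the GENCODE start) and *Ctsc* (151 bases before the start), and occurs in 23.8% of promoters. TGACTCA occurs in 5.20% of promoters and in 0 of the 6 member promoters available, which were those of *Ctsz*, *Ctsk*, *Ctss*, *Ctsc*, *Ctsd* and *Ctsl*. A match says only that the letters are there.

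Summed over the family, cathepsins took the largest share of transcripts in macrophages. In the WT library they made up 2.14% of all UMIs of Spp1 macrophages (2.13 to 2.15), 1.04% in alveolar macrophages and 0.619% in C1q macrophages. Cycling immune cells (0.508%), plasmacytoid dendritic cells (0.362%) and both kinds of monocyte (0.336% and 0.328%) came next. AT2 cells led the epithelium with 0.266% (0.260 to 0.271), above Krt8+ cells at 0.228%, AT1 cells at 0.185% and ciliated cells at 0.111%. Club cells had 0.0882%, the lowest of the 29 classes. In them the 5 club marker genes alone took 432325 CPM, which leaves a smaller share for every other gene. Adventitial fibroblasts (0.222%) led the mesenchymal classes. The endothelial classes of at least 50 cells lay between 0.0900% in venous and 0.118% in arterial cells. Lymphatic cells, 47 in WT and so not ranked, had 786 CPM of *Ctsd* and 592 of *Ctsb*. The KO library kept macrophages on top, with 1.12% in alveolar and 0.723% in C1q macrophages and 0.241% in AT2 cells.

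**Figure D1:**
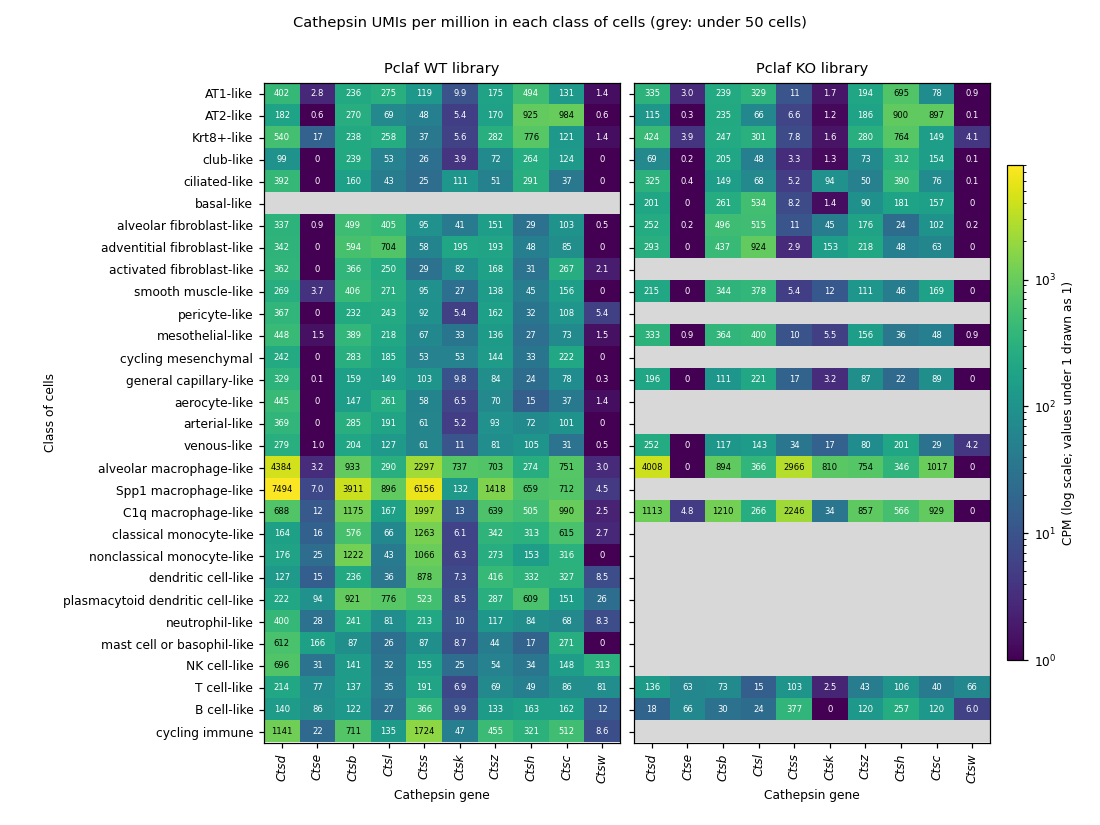
Level of each cathepsin (columns) in each class of cells (rows) of the WT library (left) and the KO library (right), in UMIs per 1e+06 UMIs of the class, with a log color scale and the value printed in each field. Grey fields are classes with under 50 cells. Spp1, alveolar and C1q macrophages are the bright rows of the WT library, and *Ctsh* and *Ctsc* are bright in AT2 cells in both libraries.

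The leading member differed among classes, also within a lineage. *Ctsd* had the most cathepsin UMIs in 13 of 29 WT classes, *Ctsb* in 6, *Ctss* in 5, *Ctsh* in 3, and *Ctsc* and *Ctsl* in 1 each. Over the 16 KO classes, a smaller set, *Ctsl* led in 6, *Ctsh* in 5, *Ctsd* in 3 and *Ctss* in 2. In WT AT2 cells, *Ctsc* (37.1%) and *Ctsh* (34.8%) together exceeded all other members, and in KO AT2 cells *Ctsh* (37.4%) and *Ctsc* (37.3%) did so as well. In WT alveolar macrophages *Ctsd* took 42.3% and *Ctss* 22.1% of the family, and in C1q macrophages *Ctss* (32.3%) led before *Ctsb* (19.0%). In alveolar fibroblasts *Ctsb* (30.0%) and *Ctsl* (24.4%) were first in WT, and *Ctsl* (31.7%) and *Ctsb* (30.6%) in KO. In adventitial fibroblasts *Ctsl* led with 31.7% in WT and 43.2% in KO. In NK cells *Ctsd* (42.7%) was followed by *Ctsw* (19.2%).

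**Figure D2:**
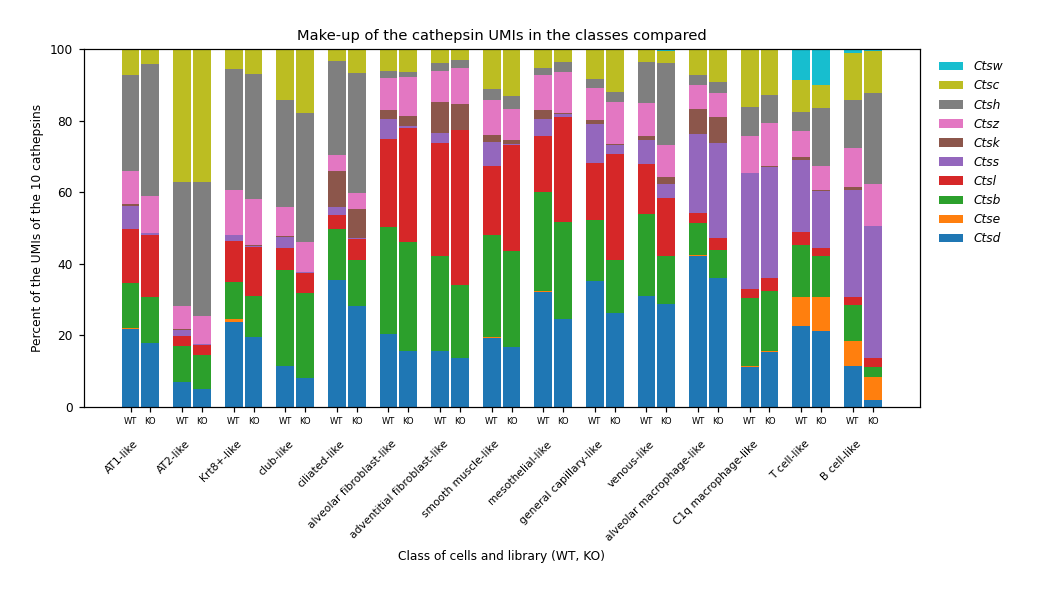
Make-up of the cathepsin UMIs in the 15 classes with at least 50 cells in both libraries: each bar is 1 class in 1 library (WT left, KO right of a pair) and its colors give the percent of the UMIs of the 10 members. *Ctsc* and *Ctsh* fill most of the AT2 bars, *Ctsd* and *Ctss* most of the alveolar macrophage bars, and *Ctss* is narrow in the KO bars of nonimmune classes.

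*Ctsd*, the aspartic endopeptidase found in lysosomes of nearly all cells, was the most abundant member in the WT library. It reached 7494 CPM in Spp1 macrophages (7426 to 7563) and 4384 in alveolar macrophages (4333 to 4436), followed by cycling immune cells at 1141, NK cells at 696 and C1q macrophages at 688. The interval of NK cells overlapped that of C1q macrophages. Cycling immune cells pool 3 unlike clusters of 274, 57 and 53 WT cells. Their leading genes include *C1qa* and *C1qb* in the first, *Trbc2* in the second and *Xcr1* in the third. *Ctsd* was 1545, 185 and 56.6 CPM in these clusters, *Ctss* 2317, 84.8 and 296, and *Ctsz* 567, 56.5 and 246. The median over the 29 classes was 362 CPM and the lowest value 99.1, in club cells, whose own markers took 432325 CPM. In the KO library alveolar macrophages were again first, at 4008 CPM (3803 to 4220), and C1q macrophages second at 1113. The 23 KO cells called Spp1 macrophages were too few for the comparisons. After thinning each cell to 1000 UMIs, a *Ctsd* UMI was found in 86.7% of 909 WT and 95% of 40 KO alveolar macrophages (84.3 to 88.8 and 83.1 to 99.4). Of the others, 1314 WT and 56 KO cells were left out as too shallow, and without thinning the shares were 68.4% and 72.9%. *Ctsd* shares its strand and part of its span with *Gm49369*, which is also listed, so its counts may miss reads that fall in both.

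*Ctse*, an aspartic protease of endosomes rather than lysosomes, was highest in mast cells or basophils, plasmacytoid dendritic cells, B cells and T cells here. It lies on chromosome 1 from 131638306 to 131675505 on the plus strand. Its levels were 166 CPM in mast cells or basophils (100 to 259, 19 UMIs in 54 cells), 93.8 in plasmacytoid dendritic cells, 85.8 in B cells and 76.8 in T cells of the WT library, and these 4 neighbours in the order overlapped. The next class, NK cells, stood at 31.2 CPM. In KO it was 65.9 CPM in B cells and 63.1 in T cells. Outside immune cells the WT level was at most 16.9 CPM, in Krt8+ cells, and 8 classes had 0 UMIs, among them all 112 pericytes. Thinned to 1000 UMIs, 7.62% of WT B cells and 7.59% of WT T cells held a *Ctse* UMI (16.2% and 17.8% unthinned), beside 0 of 4201 general capillary cells (0.0198% unthinned). That count allows a share of cells with a UMI at this depth of up to 0.0878% and sets no limit on cells that express the gene. Median depths were 1867, 2485.5 and 1946 UMIs.

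*Ctsb*, *Ctsl* and *Ctsz* form the broad endolysosomal set. *Ctsb*, which cuts inside proteins and also trims dipeptides from their carboxy end, lies on chromosome 14 from 63122462 to 63145923. It reached 3911 CPM in Spp1 macrophages (3862 to 3961), 3.20 times the next class, nonclassical monocytes at 1222. C1q macrophages had 1175 CPM in WT and 1210 in KO, and alveolar macrophages 933 and 894. Among structural classes of at least 50 cells it was highest in fibroblasts: 594 (WT) and 437 (KO) CPM in adventitial and 499 and 496 in alveolar fibroblasts. The 47 WT lymphatic cells, not ranked, had 592 CPM. The alveolar fibroblasts of the libraries share only 53.0% of their spread over clusters. In the 5 clusters with at least 50 KO cells *Ctsb* was lower in KO: 547 and 395, 425 and 388, 604 and 521, 617 and 551, and 651 and 612 CPM. A cluster with 20 KO cells had 599 and 797 CPM. B cells held 122 CPM in WT, and mast cells or basophils were lowest at 87.5.

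*Ctsl*, an endopeptidase known for lysosomal turnover and for cutting matrix once secreted, had its highest WT levels in Spp1 macrophages, plasmacytoid dendritic cells and adventitial fibroblasts. It was not high in all macrophages: WT alveolar macrophages had 290 CPM and C1q macrophages 167, which was the median over the classes. It lies on the minus strand of chromosome 13 from 64359337 to 64370890. The first 3 WT classes were Spp1 macrophages at 896 CPM (873 to 920), plasmacytoid dendritic cells at 776 (687 to 874) and adventitial fibroblasts at 704 (634 to 781). The interval of the plasmacytoid dendritic cells overlapped both others. In KO adventitial fibroblasts led with 924 CPM (854 to 999), then basal cells with 534 (107 cells, too few in WT to compare) and alveolar fibroblasts with 515. Lymphocytes were low, with 34.6 CPM in WT and 15.1 in KO T cells. In thinned cells 44.3% of WT and 55.5% of KO adventitial fibroblasts held a *Ctsl* UMI (87.2% and 93.3% unthinned), against 2.64% and 0.833% of T cells (7.28% and 4.92% unthinned).

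*Ctsz*, the single-residue carboxypeptidase also called cathepsin X, was led by the same macrophages. It lies on the minus strand of chromosome 2 from 174427493 to 174439039. The WT levels were 1418 CPM in Spp1, 703 in alveolar and 639 in C1q macrophages, and the KO levels 754 and 857 in alveolar and C1q macrophages. Cycling immune cells (455 CPM) and dendritic cells (416) followed in WT within overlapping intervals. Krt8+ cells had 282 CPM in WT and 280 in KO, and AT2 cells 170 and 186.

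*Ctss*, which stays active at neutral pH and trims the invariant chain, was 64.7 times its median over the 29 WT classes in the leading one. The WT library held 6156 CPM in Spp1 macrophages (6094 to 6218), 2297 in alveolar macrophages, 1997 in C1q macrophages, 1724 in cycling immune cells, 1263 in classical and 1066 in nonclassical monocytes, 878 in dendritic cells, 523 in plasmacytoid dendritic cells and 366 in B cells. None of these 9 neighbours overlapped. In KO it was 2966 CPM in alveolar macrophages, 2246 in C1q macrophages, 377 in B cells and 103 in T cells. The lowest values were 24.5 CPM in WT ciliated cells and 2.91 in KO adventitial fibroblasts. A thinned *Ctss* UMI was found in 97.2% of WT Spp1 macrophages and in 4.80% of WT and 0.862% of KO AT2 cells. Those AT2 shares were 16.4% and 3.27% unthinned, at median depths of 4601 and 6784 UMIs.

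*Ctsk* was concentrated in alveolar macrophages and reappeared in fibroblasts and ciliated cells. Alveolar macrophages had 737 CPM in WT (716 to 759) and 810 in KO (719 to 909), and adventitial fibroblasts 195 and 153. Alveolar macrophages fell in a shallow and a deep cluster, with medians of 672 and 7216 UMIs. *Ctsk* was 181 CPM in WT and 240 in KO in the shallow cluster, and 870 and 877 in the deep one. Spp1 macrophages had 132 CPM and C1q macrophages 12.5. Ciliated cells had 111 CPM in WT (90.7 to 136) and 94.5 in KO (88.4 to 101), while AT1, AT2, Krt8+ and club cells lay between 3.89 and 9.88 CPM in WT and between 1.196 and 1.73 in KO. Activated fibroblasts (82.1 CPM) and alveolar fibroblasts (41.4 in WT, 44.9 in KO) followed. In thinned cells, 37.3% of WT alveolar macrophages and 13.8% of WT ciliated cells held a *Ctsk* UMI (31.2% and 37.5% unthinned), beside 0.4998% of T cells (1.46% unthinned).

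**Figure D3:**
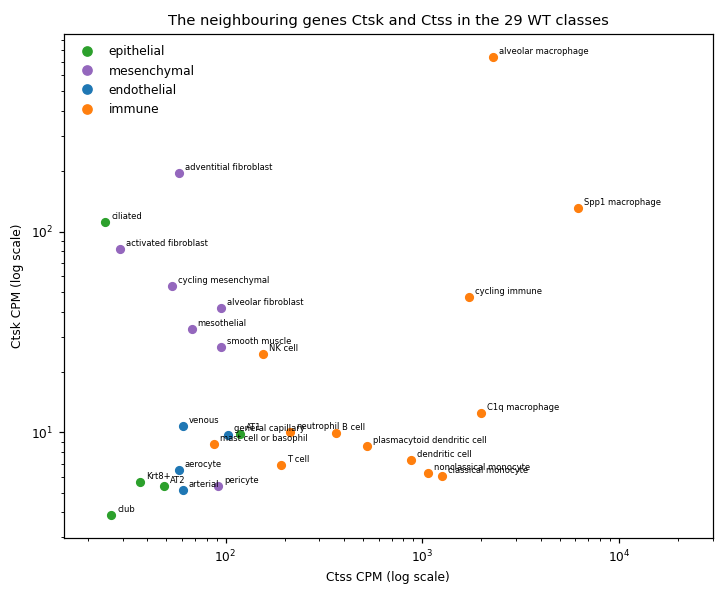
Levels of *Ctss* (x axis) and its neighbour *Ctsk* (y axis) in the 29 WT classes, both in CPM on log axes, colored by lineage. Alveolar macrophages are high for both, monocytes and dendritic cells are high for *Ctss* with 6.07 to 7.32 CPM of *Ctsk*, and adventitial fibroblasts and ciliated cells are high for *Ctsk* with 58.0 and 24.5 CPM of *Ctss*.

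*Ctsh* and *Ctsc*, which trim proteins from the amino end, were the leading members of AT2 cells. *Ctsh*, an aminopeptidase that takes part in the processing of surfactant proteins B and C, lies on chromosome 9 from 90054152 to 90076089. It was highest in AT2 cells in both libraries, at 925 CPM in WT (893 to 958) and 900 in KO (891 to 908). That rank depended on the processing. In WT, Krt8+ cells led with the gene limits read as UMIs, no upper limit, 1 in 6 KO cells or 30 components. In KO they led with the limits read as UMIs, 1 in 6 KO cells or 30 components. Krt8+ cells (776 and 764) and AT1 cells (494 and 695) also ranked high, whereas aerocytes had 15.4 CPM, the lowest WT level. AT1 cells fell in a shallow cluster with 529 and 969 CPM (423 WT and 541 KO cells) and a deeper one with 408 and 517 (45 and 223 cells). In the shallow one the summed AT2 markers (24679 and 24319 CPM) exceeded the AT1 markers (9093 and 7876). In the deeper one the AT2 markers were 5250 and 7744 CPM, and their part in *Ctsh* was not tested. Spp1 macrophages (659) and plasmacytoid dendritic cells (609) were the leading nonepithelial classes. A thinned *Ctsh* UMI was present in 50% of WT and 50.01% of KO AT2 cells (46.1 to 53.9 and 48.9 to 51.2), 81.2% and 90.2% before thinning. In alveolar fibroblasts, at median depths of 1032 and 4366 UMIs, the thinned shares were 2.64% and 2.09%.

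*Ctsh* also differed among AT2 clusters. The cluster that had the AT1 marker *Ager* among its leading genes held 1579 CPM of *Ctsh* in 118 WT and 1737 in 1067 KO cells, with *Ager* at 2001 and 2436 CPM. The other AT2 clusters of at least 20 cells lay between 643 and 948 CPM of *Ctsh* in WT and between 539 and 1002 in KO, with *Ager* between 591 and 1021 CPM over both libraries. *Ctsc* did not follow that order: it had 715 and 840 CPM in the *Ager* cluster and 730 to 1175 (WT) and 834 to 974 (KO) in the others, apart from a shallow cluster at 504 and 398 CPM. These are cells of 1 mouse library each, described without a test.

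*Ctsc*, the dipeptidyl peptidase that activates serine proteases of granules, lies on chromosome 7 from 88278085 to 88310888, opposite the noncoding gene *Gm26522*. It was at the same summed level in C1q macrophages and AT2 cells of the WT library, 990 (962 to 1018) and 984 CPM (950 to 1018). WT C1q macrophages had 330 CPM in a shallow cluster of 991 cells and 1124 in a deep one of 893. WT alveolar macrophages had 258 in the shallow and 868 in the deep cluster. Alveolar macrophages had 751 CPM in WT and 1017 in KO, Spp1 macrophages 712 and classical monocytes 615. In KO, C1q macrophages (929) and AT2 cells (897) followed alveolar macrophages within overlapping intervals. Venous cells were lowest in both libraries, at 30.8 and 29.4 CPM. The share of AT2 cells with a thinned UMI was 55.6% in WT and 51.5% in KO (83.3% and 91.1% unthinned), and that of venous cells 2.34% and 4.35% (8.53% and 9.80% unthinned).

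*Ctsw*, a cysteine protease known for its expression in cytotoxic lymphocytes, was the most restricted member. It lies on the minus strand of chromosome 19 from 5465043 to 5468507. NK cells had 313 CPM (283 to 346) and T cells 81.2 (74.3 to 88.6) in WT, and T cells 65.6 (42.9 to 96.1) in KO. Among WT T cells, those with a *Cd8a* or *Cd8b1* UMI and no *Cd4* UMI had 134 CPM (118 to 152, 589 cells), against 52.5 (38.9 to 69.4, 346 cells) in those with *Cd4* alone, intervals that did not overlap. For *Ctsd* (222 and 197 CPM) and *Ctsb* (120 and 158) the intervals of the same groups overlapped. The KO library held 24 and 15 such cells with 6 and 1 *Ctsw* UMIs. In thinned WT cells the shares with a *Ctsw* UMI were 27.9% of NK cells, 7.59% of T cells and 0.0238% of general capillary cells (44.7%, 17.0% and 0.0791% unthinned). In 8 WT classes the count was 0.

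Across the 29 WT classes, the genes with the most similar pattern were found by Pearson r of log2(CPM + 10) among 12939 genes. The points are classes of 1 library and differ in depth, so r is a description. *Ctss* went with *Cd68* (r = 0.96, and 0.83 over the 16 KO classes), *Cyba* (0.94) and *Cd300c2* (0.94). *Ctsw* went with the interleukin-2 receptor chain gene *Il2rb* (0.97 in both), *Gm19585* (0.97) and the chemokine gene *Xcl1* (0.96). *Ctse* went with the early activation gene *Cd69* (0.93, and 0.97 in KO), *Ripor2* (0.91) and *Crlf3* (0.91). *Ctsz* and *Ctsb* shared their first partner, the lysosomal hexosaminidase gene *Hexa* (0.93 and 0.89). The next for *Ctsz* were *Clta* (0.88) and *Erp29* (0.87), and for *Ctsb* they were *Ctsa* (0.86) and *Ctsz* itself (0.85). *Ctsd* went with *Pld3* (0.87), *4930430E12Rik* (0.86) and *Tfec* (0.84), and *Ctsl* with *Plbd2* (0.85), *Atraid* (0.79) and *Timp2* (0.78). *Ctsk* went with *Mmp19* (0.82), *Bhlhe41* (0.82) and *Slc7a2* (0.81), and *Ctsh* with *Spint1* (0.80), *Rbm47* (0.79) and *Fuca2* (0.78). *Ctsc* went first with *Gm26522* (0.86), which overlaps it on the other strand, then *Lyz2* (0.78) and *Hk2* (0.77). The strand setting of the counting is not given in the sources used here, so reads of *Ctsc* and *Gm26522* may not be separated.

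The libraries were then compared within the 15 shared classes, for members with at least 50 UMIs over both. Of 117 pairs of member and class, 3 were at least 2-fold higher in KO and 17 at least 2-fold lower, beside 2.37% and 7.45% of all 128700 pairs of gene and class. Over the members' pairs the ratio of KO to WT had a median of -0.10 on the log2 scale. *Ctss* made up 9 of the 17 lower pairs. Without it the remaining 8 were *Ctsb* and *Ctsd* in B cells, *Ctsk* in AT2, smooth muscle and general capillary cells, *Ctsc* and *Ctsl* in T cells and *Ctse* in C1q macrophages. The 3 higher pairs were *Ctsc* in ciliated cells, *Ctsh* in T cells and *Ctsk* in C1q macrophages. Ratios of *Ctse* in C1q macrophages and *Ctsk* in general capillary cells rest on 1 and 2 KO UMIs, and their intervals included 0. After TMM scaling, which moved the ratios of a class by up to 0.28, 59 of the 117 pairs lay above 0 and 58 below, against 46 and 71 as reported, and the counts past 2-fold were the same. When the shared barcodes were left out and the cells clustered again, 13 classes remained, with 1 pair at least 2-fold higher, and the ratio of *Ctsk* in alveolar macrophages went from 0.14 to -0.13.

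**Figure D4:**
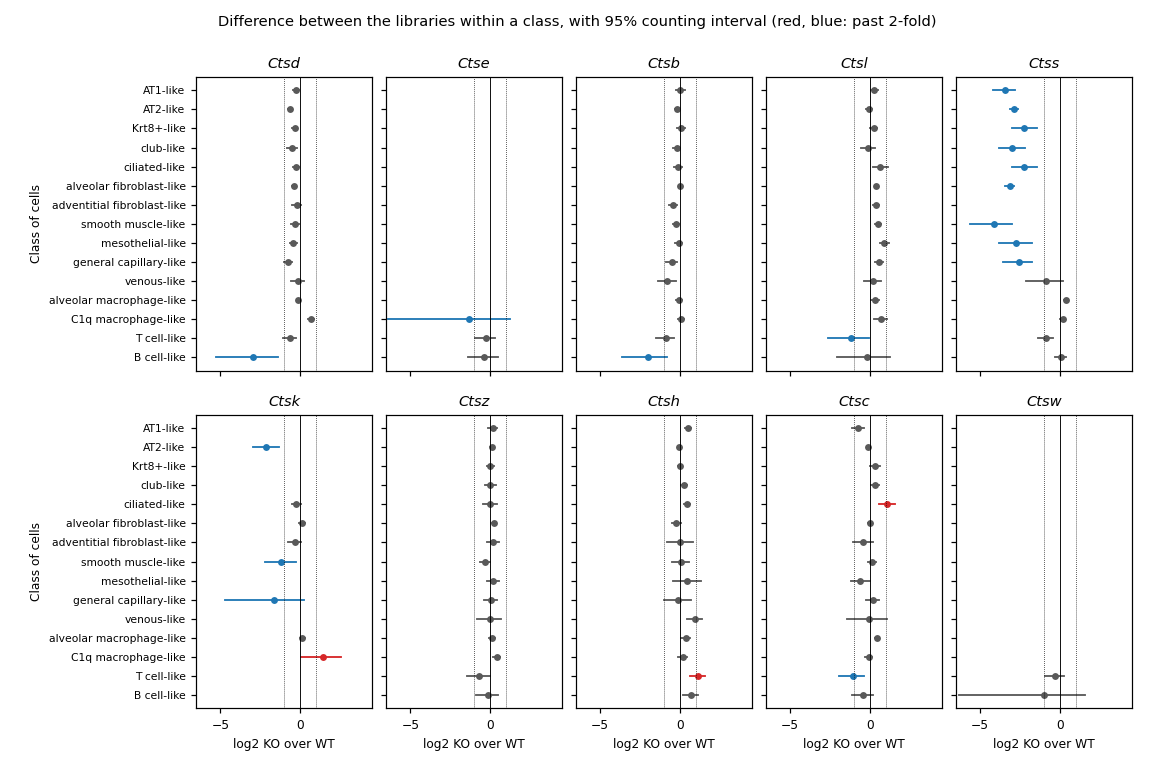
Difference between the libraries in each of the 15 shared classes (rows), 1 panel per member: the point is the log2 ratio of KO over WT and the line its exact 95% counting interval, drawn only where both libraries together held at least 50 UMIs. Dotted lines mark 2-fold. *Ctss* sits left of the dotted line in 9 classes and near 0 in macrophages and B cells, and most other points lie between the dotted lines.

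*Ctss* differed most in classes where its level was low. In alveolar macrophages it was 2297 CPM in WT and 2966 in KO (log2 ratio 0.37, 0.28 to 0.46), in C1q macrophages 1997 and 2246 (0.17, 0.03 to 0.30) and in B cells 366 and 377 (0.04, -0.34 to 0.41). T cells, the fourth immune class, were lower in KO, at 191 and 103 CPM (-0.89, -1.37 to -0.44), a ratio like that of venous cells (-0.85). In AT2 cells it was 48.5 and 6.61 CPM (-2.87, -3.15 to -2.60), in AT1 cells 119 and 10.8 (-3.45), in alveolar fibroblasts 95.1 and 10.8 (-3.14) and in smooth muscle 94.7 and 5.39 (-4.14, -5.60 to -2.98). An AT2 cluster ran the other way, with 46.7 CPM in 125 WT and 73.6 in 141 KO cells. A shallow AT2 cluster had 321 and 25.7 CPM. The other AT2 clusters of at least 20 cells held 17.7 to 56.2 CPM in WT and 3.59 to 9.19 in KO. Every one of the 11 nonimmune classes was lower in KO, and 9 of the 10 with enough UMIs were past 2-fold. Of all genes, 4.31% were at least 2-fold lower in AT2 cells, 3.87% in AT1 cells, 6.75% in alveolar fibroblasts and 6.31% in smooth muscle. The summed level of the 6 immune lineage markers (*Ptprc*, *Laptm5*, *Coro1a*, *Cd52*, *Lcp1*, *Cd53*) moved the same way in all 11 classes. It went from 489 to 12.6 CPM in smooth muscle, from 233 to 20.5 in alveolar fibroblasts, from 389 to 43.7 in AT1 cells and from 216 to 145 in AT2 cells. A smooth muscle cluster of 61 WT and 0 KO cells had 313 CPM of *Ptprc* and 221 of *Ctss*. The others had 33.1 and 42.3 of *Ptprc* in WT, with *Ctss* at 55.8 and 58.8 in WT and 8.40 and 1.93 in KO. An alveolar fibroblast cluster of 507 WT and 20 KO cells had *Ctss* at 707 and 996 CPM. Those of at least 50 KO cells had 37.4 to 132 in WT and 4.77 to 34.1 in KO. Over the 11 classes the r between the log2 ratios of *Ctss* and of these markers was 0.71. The WT library held far more immune cells than the KO library, 2223 against 96 alveolar macrophages for instance. The part of these values in the *Ctss* difference was not tested.

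**Figure D5:**
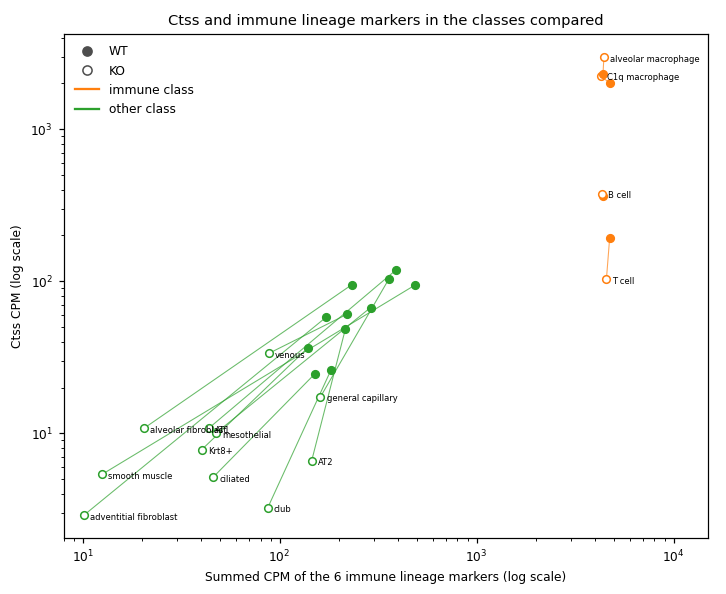
Level of *Ctss* (y axis) against the summed level of 6 immune lineage markers (x axis) in the 15 shared classes, in CPM on log axes. Filled points are WT, open points KO, and a line joins the libraries of 1 class. Nonimmune classes (green) move down and left together from WT to KO, and the 4 immune classes (orange) stay at 4289 to 4742 CPM of markers.

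Some of the large differences of other members rest on few UMIs, and some are in classes split unequally over clusters. *Ctsk* in AT2 cells was 5.39 CPM in WT and 1.196 in KO (-2.17, -2.94 to -1.33; 18 and 63 UMIs), both far under its level in alveolar macrophages. In B cells *Ctsd* was 140 and 18.0 CPM (-2.96, -5.24 to -1.41) and *Ctsb* 122 and 29.9 (-2.03, -3.66 to -0.80), from 3 and 5 KO UMIs in 64 KO cells, where 19.7% of all genes were at least 2-fold lower. In T cells *Ctsl* was 34.6 and 15.1 CPM (-1.19, -2.65 to -0.05) and *Ctsc* 86.2 and 40.4 (-1.09, -1.91 to -0.38), with 13.9% of all genes lower. These rest on 6 and 16 KO UMIs. In the T cell clusters of at least 20 cells in both libraries *Ctsc* was 135 and 59.0, 84.1 and 41.2, and 66.5 and 26.1 CPM. *Ctsk* in smooth muscle was 26.6 and 11.7 CPM (-1.19, -2.19 to -0.29).

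*Ctsc* in ciliated cells was 36.8 CPM in WT and 75.7 in KO (1.04, 0.54 to 1.59), in a class where 3.63% of genes were at least 2-fold higher. The main ciliated cluster had 19.8 CPM in 99 WT and 22.1 in 910 KO cells. A smaller one had 89.5 CPM in 58 WT and 278 in 303 KO cells, with the summed AT2 markers at 13265 and 61939 CPM. *Ctsh* in T cells was 49.2 and 106 CPM (1.11, 0.61 to 1.58; 3% of genes higher), where *Sftpc* was 535 and 1638 CPM. In 1 T cell cluster it was 55.5 in 1209 WT and 223 in 46 KO cells, in another 86.5 and 16.8 (292 and 40 cells), and in a further one 17.3 and 26.1 (668 and 28 cells). The class ratio reversed to -0.029 with no upper limit on genes and to -0.062 with 30 principal components. *Ctsh* was also higher in KO B cells (163 and 257 CPM, 0.66) and venous cells (105 and 201, 0.94), where *Sftpc* was 356 and 1874 and 155 and 1250 CPM. *Sftpc* was lower in KO in only 1 of the 15 classes, and over these classes the r between the log2 ratios of *Ctsh* and *Sftpc* was -0.16. Adventitial fibroblasts had the largest *Sftpc* ratio (4.84) and a *Ctsh* ratio of -0.01, and general capillary cells had 3.20 and -0.11. The part of AT2 transcripts in these values was not tested. In AT2 cells themselves the log2 ratio of *Ctsh* was -0.04 (-0.09 to 0.01).

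*Ctsk* in C1q macrophages was 12.5 and 33.9 CPM (1.43, 0.06 to 2.56) from 61 and 7 UMIs, beside 2.21% of genes higher. The C1q macrophages fall in a shallow cluster, which held 991 of 1884 WT and 107 of 132 KO cells, and a deep one (medians of 675.5 and 4355 UMIs). *Spp1* and *Mmp12* were among the leading genes of the shallow one. *Ctsk* was 36.6 and 89.7 CPM in the shallow cluster, and in the deep cluster 7.66 CPM in WT, with 0 UMIs in 25 KO cells. *Ctsd*, which was 688 and 1113 CPM in the class (0.70, 0.50 to 0.89), was 1534 and 1974 in the shallow and 516 and 591 in the deep cluster. The class ratios therefore also hold the unequal split of cells between the clusters.

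Small differences shared by many classes ran in opposite directions for *Ctsd* and *Ctsl*. *Ctsd* was lower in KO in 14 of 15 classes, and in 12 of them the interval lay below 0, with a median of -0.35. Examples are AT2 cells (182 and 115 CPM, -0.66), general capillary cells (329 and 196, -0.75) and alveolar macrophages (4384 and 4008, -0.13). The levels in the 2 clusters of alveolar macrophages went opposite ways, read here without intervals and on few KO cells. *Ctsd* was 1766 and 2026 CPM in the shallow one (1549 WT and 57 KO cells) and 5009 and 4239 in the deep one (674 and 39 cells). The immune lineage markers, which were lower in KO in all 11 nonimmune classes, went from 358 to 161 CPM in general capillary cells. Of their clusters, the pair richest in *Ctsd* (564 and 515 CPM in WT) and *Ctss* (382 and 331) held 862 and 423 WT but only 11 and 3 KO cells. In the other 3 clusters *Ctsd* was 235 to 326 CPM in WT and 163 to 206 in KO. The part of the markers and clusters in the *Ctsd* difference was not tested. *Ctsl* was higher in KO in 11 of 15 classes, with 9 intervals above 0 and a median of 0.33. Mesothelial cells (218 and 400 CPM, 0.88, 0.60 to 1.16), C1q macrophages (167 and 266, 0.68), ciliated cells (43.5 and 67.6, 0.64) and general capillary cells (149 and 221, 0.58) had the largest ratios, and adventitial fibroblasts, where its level was highest, had 0.39 (704 and 924). Mesothelial cells of the libraries share only 50.3% of their spread over clusters. *Ctsb* was below 0 in 12 of 15 classes, but in 9 of 15 after TMM scaling, with a median of -0.20. *Ctsz* lay between -0.68 in T cells and 0.42 in C1q macrophages and passed 2-fold in 0 of 15 classes. *Ctsw* in T cells (-0.31, -0.94 to 0.26) and *Ctse* in T (-0.28, -0.93 to 0.30) and B cells (-0.38, -1.39 to 0.47) differed by less than their counting error.

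Read class by class, the members' counts stood beside these shares of all genes. In alveolar macrophages 0 of 8 members were past 2-fold in either direction, where 1.59% of genes were higher and 12.1% lower, and the members' median was 0.23 beside -0.11 over all genes. In C1q macrophages 1 of 9 was higher (2.21% of genes) and 1 lower (19%), with a median of 0.17 beside -0.30. In T cells 1 of 9 was higher (3%) and 2 lower (13.9%), with a median of -0.68 beside -0.24, and in B cells 0 were higher (4.27%) and 2 of 9 lower (19.7%), with -0.38 beside -0.34. Lymphocytes thus had the lowest medians and alveolar macrophages the highest.

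In AT2 cells 0 of 8 were higher (1.67%) and 2 lower (4.31%), with a median of -0.17 beside -0.15. In AT1 cells 0 of 7 were higher (2.4%) and 1 lower (3.87%), in Krt8+ cells 0 of 7 (3.54%) and 1 (1.43%), and in club cells 0 of 7 (2.67%) and 1 (3.75%). The lower member was *Ctss* in each of these 3 classes. In ciliated cells 1 of 8 was higher (3.63%) and 1 lower (1.76%). Alveolar fibroblasts had 0 of 8 higher (1.12%) and 1 lower (6.75%), smooth muscle 0 of 8 (1%) and 2 (6.31%), mesothelial cells 0 of 7 (3.23%) and 1 (3.06%), and adventitial fibroblasts 0 of 7 in either direction (1.07% and 1.09%). In general capillary cells 0 of 8 were higher (2.04%) and 2 lower (7.49%), and in venous cells 0 of 7 were past 2-fold (1.99% and 5.87%). The median over the members lay between -0.32 in general capillary and 0.02 in AT1 cells among these nonimmune classes.

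Genes that work with cathepsins were read from 5 lists, whose counts stand beside the 2.37% higher and 7.45% lower of all pairs of gene and class. Of the inhibitors (9 cystatins and stefins), *Cst3* was highest in dendritic cells (12079 CPM in WT) and *Cstb*, the stefin of the cytosol, in Spp1 macrophages (1109) and Krt8+ cells (954). Over the shared classes 0 of 32 pairs were at least 2-fold higher and 1 lower, *Cst3* in T cells (395 and 194 CPM). Among 11 genes of processing, sorting and transcription, *Psap* (4973 CPM) and *Lgmn* (960), which activates several cathepsins, were highest in Spp1 macrophages. There 3 of 139 pairs were higher, *Sort1* in C1q macrophages and adventitial fibroblasts and *Mitf* in club cells. The 12 lower pairs, also near the share of all pairs, were *Psap* in AT2, club and B cells, *Lgmn* in B cells, *Gnptab* in B and T cells, *M6pr* in B and venous cells, *Tfe3* in B cells and C1q macrophages, *Tfeb* in C1q macrophages and *Mitf* in mesothelial cells. In AT2 cells *Psap* was 92.8 and 31.6 CPM (-1.56, -1.73 to -1.38).

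Of 8 substrates and partner proteases, *Cd74*, the invariant chain that *Ctss* trims, was highest in dendritic cells (12271 CPM) and C1q macrophages (12010). It was lower in KO alveolar macrophages (1535 and 316 CPM, -2.28), smooth muscle (637 and 82.6, -2.95), alveolar fibroblasts (367 and 67.8, -2.44), adventitial fibroblasts (190 and 52.4, -1.86) and mesothelial cells (187 and 77.5, -1.27). The immune lineage markers were also lower in the last 4 of these classes (489 to 12.6, 233 to 20.5, 172 to 10.2 and 289 to 47.4 CPM) but not in alveolar macrophages (4383 and 4432), and their part was not tested. *Napsa*, the aspartic protease that works beside *Ctsh* on surfactant proteins, had 1612 CPM in WT AT2 cells and was at least 2-fold higher in KO in Krt8+, ciliated, club, general capillary and mesothelial cells. The AT2 gene *Sftpc* was higher in KO in the same 5 classes, with log2 ratios of 2.01, 2.42, 1.36, 3.20 and 1.46. It was lower in KO in only 1 of the 15 classes, so a match in any 5 classes tells little. In C1q macrophages (3.64) and alveolar fibroblasts (2.69) *Sftpc* was also higher, while *Napsa* was not at least 2-fold higher there. The part of *Sftpc* was not tested. *Gzma* (7148 CPM) and *Prf1* (805) were highest in NK cells, as *Ctsw* was. *Gzma* was lower in KO T cells (186 and 60.6 CPM, -1.62) and, as a bound on 0 KO UMIs, at least 2.66-fold lower in B cells and 2.07-fold lower in alveolar macrophages. *Gzmk* and *Prf1* were lower in T cells on 2 and 4 KO UMIs. In all, 5 of 36 pairs were higher and 10 lower.

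Of 6 lysosomal membrane genes, *Cd63* (1656 CPM) and *Lamp1* (1080) were highest in Spp1 macrophages. Over 83 pairs 0 were higher and 7 lower, a share near that of all pairs: *Cd68* in AT2, T, alveolar fibroblast and general capillary cells, *Scarb2* in B and T cells and *Cd63* in venous cells. *Cd68* in alveolar fibroblasts was 21.5 and 2.89 CPM. Among 4 other cathepsins, *Ctsa* (541 CPM in Spp1 macrophages) was lower in B and T cells, and *Ctsf* was lower in alveolar macrophages on 1 KO UMI and higher in smooth muscle (11.7 and 34.1 CPM). *Ctso* was highest in B cells at 82.3 CPM.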

How the data were processed

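Single-cell RNA-seq (10x 3' chemistry) was measured in 1 *Pclaf* WT and 1 *Pclaf* KO library. The deposited matrices hold raw UMI counts per gene and barcode, which the authors made with Cell Ranger; the labels name version 3.1.0 and the matrix header 5.0.0, and the strand setting is not given in the sources used here. No column was left unmapped (0).

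Cells with more than 200 and fewer than 5000 genes and under 20% mitochondrial UMIs were kept. They were clustered in rounds (10, then 20 principal components, 20 neighbors, resolution 0.8, 2000 variable genes) in Seurat 5.3.0 with the cathepsins left out, and named from marker lists. Doublets were called with Scrublet (scanpy 1.11.5) in 7.76% of WT and 2.70% of KO cells, and were kept in the values reported. The shares expected from the numbers of kept cells were 24.1% and 12.5%. UMIs were summed per class and library. Levels carry exact Poisson, shares exact Clopper-Pearson and ratios exact conditional 95% intervals (scipy 1.17.1), which cover counting error only. Ratios were read where both libraries together held at least 50 UMIs and a class at least 50 cells in each, and "past 2-fold" means a log2 ratio of at least 1 in size. Only the ratio step was tested on simulated data, with known fold changes and counting error alone. Clustering, naming and thinning were not simulated. TMM factors came from edgeR 4.0.16.

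With 1 library per genotype no test was made. The members and lists were chosen with earlier results of these data known. Beside the members, the text names companion genes past 2-fold, up to 2 per list with the highest level and, for each member, the 3 genes of at least 200 WT UMIs with the highest r. Promoters came from RefSeq for 6 of 10 members, and gene positions from GENCODE M21 on GRCm38. Alternatives covered the filters, doublets, depth, shared barcodes, clustering and scaling.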

Additional observations from a re-analysis of the deposited data

Results flagged for a closer look

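*Ctsc* lay on opposite sides of 0 in 2 classes, with intervals that excluded 0 in both: the log2 ratio of KO over WT was 1.04 in ciliated cells and -1.09 in T cells. *Ctsk* did so as well, with 1.43 in C1q macrophages and -2.17 in AT2 cells. Each class is 1 library per genotype, so the difference between the classes was not tested. With called doublets removed the ciliated value of *Ctsc* was -0.62, and the value of *Ctsk* in C1q macrophages rests on 7 KO UMIs.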

How the results depend on the processing

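Of 1713 recomputed log2 ratios for 117 pairs, 1455 stayed within their counting error, 250 moved beyond it and 8 reversed. A reversal was counted only for pairs past 2-fold. Sign changes of the other pairs are among those that stayed or moved. Only 67 of the 117 pairs kept their sign under all alternatives that gave a value. Of the 20 pairs past 2-fold, 15 kept their sign under all alternatives that gave a value, the 9 of *Ctss* among them. Those that reversed were *Ctsh* in T cells (-0.029 with no upper limit on genes, -0.062 with 30 components), *Ctsb* in B cells (0.67 with at least 500 genes), *Ctsk* in general capillary cells (0.095 with mitochondrial UMIs under 10%, 0.38 with 1 in 6 KO cells), *Ctsc* in ciliated cells (-0.62 without called doublets) and *Ctse* in C1q macrophages (1.10 with 10 components, 0.63 with 30). The 3 higher pairs became 1 with no upper limit, without doublets, without shared barcodes and at resolution 0.4, and 0 with 1 in 6 KO cells, at resolution 1.2 and with all variable genes. The 17 lower pairs became 9 with 1 in 6 KO cells and 7 with at least 200 UMIs. Without *Ctss*, the 8 lower pairs became 5 with no upper limit, 2 with 1 in 6 KO cells, 4 with 10 components, 14 with at least 10 UMIs and 4 with at least 200 UMIs, where by construction other pairs are measured. Among classes of at least 50 cells in both settings, the leading class of 10 members was the same for 6 in WT with the limits read as UMIs and at resolution 0.4. In KO it was the same for 6 with the limits read as UMIs and with all variable genes. Spp1 macrophages, the WT leader for *Ctsb*, *Ctsd*, *Ctsl*, *Ctss* and *Ctsz*, were not among the WT classes compared under those WT alternatives. Some classes were not named under some alternatives, so fewer pairs were compared there, and the cause of the other changes was not tested. No paired analysis was possible because each group is 1 library. KO immune classes of 64 to 132 cells limit the ratios of lymphocytes and macrophages.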
